A study of Bos taurus with 11 samples.

Results

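The *CLCN5*-hosted miRNAs *bta-miR-532*, *bta-miR-188*, *bta-miR-502a*, *bta-miR-502b*, *bta-miR-362-5p*, *bta-miR-362-3p*, *bta-miR-500* and *bta-miR-660* (written without the species prefix from here on) were followed in mammary biopsies of lactating dairy cows. They were chosen by name because their genes lie together, with earlier results of these data known. All 8 were found among the 796 miRNAs of the deposited count table. In the RefSeq annotation of the ARS-UCD2.0 assembly, 8 miRNA genes lie within the span of *CLCN5* on the X chromosome. Their order is *MIR532*, *MIR188*, *MIR502A-2*, *MIR502B*, *MIR362*, *MIR500*, *MIR660* and *MIR502A-1*. *MIR362* gives both *miR-362-5p* and *miR-362-3p*, the products of the 5′ and the 3′ arm of 1 hairpin, whereas reads of *miR-502a* may come from either of 2 genes. The groups were 5 Holstein and 6 Montbéliarde cows, with 1 small RNA library per cow. All were females at mid-lactation on the same diet, neither breed received a treatment, and ages are not given in the labels. The tissue came from the rear udder, and a Holstein cow with mastitis had been left out by the study. The libraries are named by the tags in their records, CNLX1 to CNLX9 for Holstein and CNLX13 to CNLX23 for Montbéliarde, so that the order of the tags and the breed cannot be told apart.

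A miRNA guides the silencing complex to messenger RNAs that pair with its seed, the bases near its 5′ end, and lowers their translation or stability. Many miRNAs lie in clusters inside a host gene. They can be cut from 1 primary transcript, but each hairpin is then processed, loaded and degraded on its own, so that neighbours may differ widely in mature level. *CLCN5* encodes an endosomal chloride/proton exchanger that is best known from the kidney tubule, where its loss causes Dent disease. The miRNA cluster in this gene is conserved among placental mammals and was mostly studied in tumour cells. The host transcript was not measured by these libraries. The question was whether the neighbours share their level and their difference between the breeds.

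Between 6087865 and 16808976 reads were counted per library. Levels are given as normalized read counts, that is, raw counts after division by the library's size factor from DESeq2. Values of single cows are given for Holstein, and the lowest, the median and the highest for Montbéliarde. A biopsy holds epithelial, stromal, vascular and blood cells. In such bulk samples, fewer cells of a type and less RNA per cell cannot be told apart. Of 6 epithelial marker miRNAs (the *miR-200* family with *miR-141* and *miR-429*, and *miR-205*), none was at 0, and 5 had a lower mean in Montbéliarde. Holstein libraries had summed levels of 367535 to 466746 for these, Montbéliarde libraries 180093 to 469496. Of 5 stromal markers, none was at 0, and 2 had a lower mean in Montbéliarde. Their sums were 2186037 to 3432011 (Holstein) and 2586506 to 5095137 (Montbéliarde). Of 5 leukocyte markers, none was at 0, and none had a lower mean in Montbéliarde. Their sums were 18031 to 26952 (Holstein) and 17229 to 39422 (Montbéliarde). The part of tissue composition in the results was not tested.

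The members of the cluster differed more in level than in breed. Their joint share of a library's counted reads was 0.344% ± 0.0844 (SD, n = 11). Of these reads, *miR-660* held 86.7% ± 1.07 (SD, n = 11) and *miR-532* 11.99% ± 1.04 (SD, n = 11), and each of the other 6 held less than 1% in every library. The mean level of *miR-660*, a miRNA known to target *MDM2* in lung cancer cells, was 28822 over the 11 libraries, rank 34 in the table. *MiR-532*, known to lower the tumour suppressor *RUNX3* in gastric cancer cells, had a mean of 3965 and rank 74. A middle group followed with means of 136.4 for *miR-362-3p*, 111.9 for *miR-500* and 104.5 for *miR-362-5p*. The lowest were *miR-188*, known from the choice of bone marrow stromal cells between bone and fat, with a mean of 38.5, *miR-502a* with 37.7 and *miR-502b* with 4.74. The highest mean was thus 6078 times the lowest, which rested on 47 reads over the 11 libraries. These are levels of sequenced reads, and the efficiency with which each miRNA was ligated and amplified was not measured.

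**Figure D1:**
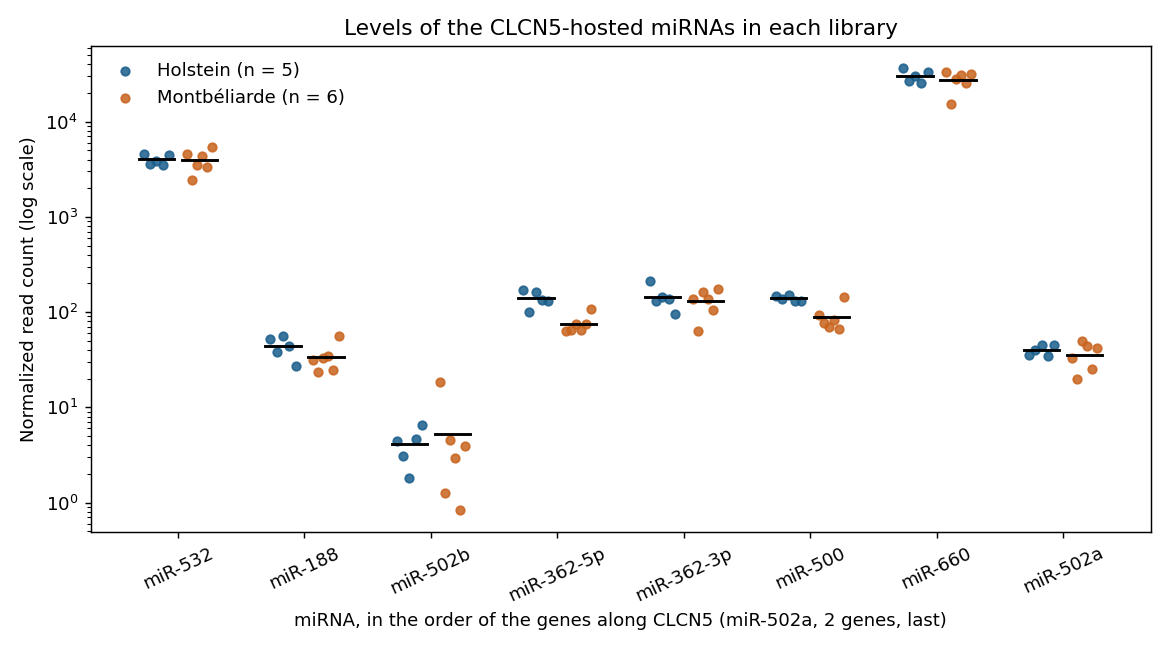
Normalized read counts (vertical log axis) of the 8 miRNAs hosted by *CLCN5* in each of 5 Holstein and 6 Montbéliarde libraries (points), with the mean of each breed (black bars). The means run from 4.74 for *miR-502b* to 28822 for *miR-660*, and only *miR-362-5p* and *miR-500* have 5 of 6 Montbéliarde libraries below every Holstein library.

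Part of the order was the same in all libraries. In each of the 11 libraries, *miR-660* was above *miR-532*, *miR-532* above *miR-362-3p*, *miR-362-5p* above *miR-188*, and *miR-502a* above *miR-502b*. By contrast, *miR-188* had more reads than *miR-502a* in 5 libraries and fewer in 6. *MiR-500* exceeded *miR-362-5p* in 5 libraries, had fewer reads in 5 and the same number in 1. *MiR-362-3p* had more reads than *miR-500* in 2 of 5 Holstein and 5 of 6 Montbéliarde libraries. These neighbours in the order did not differ beyond their spread.

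Neighbouring genes could be close or far apart in level. The mean of *miR-532* was 103.1 times that of *miR-188*, which is encoded next to it, and the mean of *miR-660* was 257.5 times that of *miR-500*. *MiR-500*, from the gene next to *MIR362*, was within 1.07-fold of *miR-362-5p* and 1.22-fold of *miR-362-3p*.

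The largest breed difference of the cluster was that of *miR-362-5p*, known to repress the deubiquitinase *CYLD* in gastric cancer cells. Its normalized read counts were 170.3, 101.3, 162.3, 133.2 and 130.3 in the Holstein libraries CNLX1, CNLX3, CNLX5, CNLX7 and CNLX9. In Montbéliarde the lowest was 63.3, the median 70.0 and the highest 109.0. All Montbéliarde libraries but CNLX23 were below every Holstein library, so that the breeds overlapped by 1 library, between CNLX3 and CNLX23. These values rested on 99 to 269 reads in Holstein and on 38 to 139 in Montbéliarde. The log2 fold change, Montbéliarde over Holstein, was -0.89 (SE 0.22, 95% interval -1.35 to -0.43). That is a level 1.86-fold higher in Holstein. Its unadjusted p was 0.000957, the rank 5 among the 550 miRNAs tested, and the Benjamini-Hochberg adjusted p of edgeR's quasi-likelihood test was 0.0964, above the threshold of 0.05.

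The next was *miR-500*, whose gene follows *MIR362*. Its levels were 149.2, 137.2, 149.6, 131.9 and 130.3 in the Holstein libraries, in the same order of tags. In Montbéliarde the lowest was 66.7, the median 79.8 and the highest 144.3. Again CNLX23 was the only Montbéliarde library inside the Holstein range, and the other 5 were below it. The Holstein libraries were close together, with a coefficient of variation of 6.65%, whereas counting error alone would give 8.05% at 100 to 248 reads. In Montbéliarde the coefficient was 32.5%, against 11.95% from counting error. The log2 fold change was -0.65 (SE 0.22, 95% interval -1.13 to -0.18), with an unadjusted p of 0.0101 and an adjusted p of 0.213 (edgeR).

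For the 2 most abundant members the interval of the breed difference included 0. The levels of *miR-660* were 36568, 27032, 29838, 25389 and 33522 in Holstein. In Montbéliarde they had a lowest value of 15457, a median of 29463 and a highest value of 32873. The log2 fold change was -0.15, with a 95% interval of -0.56 to 0.26 (adjusted p = 0.789, edgeR). Only CNLX15 fell below the Holstein range. For *miR-532* the levels were 4527, 3625, 3852, 3525 and 4514 in Holstein. The Montbéliarde libraries had 2449, 3910 and 5384 as lowest value, median and highest value. Its log2 fold change was -0.03, with a 95% interval of -0.45 to 0.39 (adjusted p = 0.97, edgeR), and the Montbéliarde libraries spread on both sides of the Holstein range. Counting error was at most 1.79% for either miRNA in either breed, below the spread between cows.

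*MiR-362-3p*, the other arm of the *MIR362* hairpin, had levels of 214.2, 131.0, 144.2, 135.9 and 96.4 in Holstein, and 63.7, 137.1 and 174.9 as lowest value, median and highest value in Montbéliarde. Its log2 fold change was -0.16 (95% interval -0.73 to 0.41, adjusted p = 0.819, edgeR), and 5 of 6 Montbéliarde libraries lay within the Holstein range. *MiR-188* had 52.7, 37.9, 56.7, 44.2 and 27.4 in Holstein, and 23.7, 32.4 and 56.5 as lowest value, median and highest value in Montbéliarde. Its log2 fold change was -0.37 (95% interval -0.96 to 0.22, adjusted p = 0.551, edgeR), and it was -0.0997 with library size as a covariate. For *miR-502a*, with levels of 34.3 to 45.6 (Holstein) and 19.99 to 49.5 (Montbéliarde), it was -0.17 (95% interval -0.71 to 0.37, adjusted p = 0.811, edgeR). *MiR-502b* had between 1 and 11 reads per library. The coefficient of variation expected from counting was 49.2% in Holstein and 70.2% in Montbéliarde, and its log2 fold change of 0.24 had an interval from -1.16 to 1.65. A breed difference of *miR-502b* was not detectable at this depth.

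**Figure D2:**
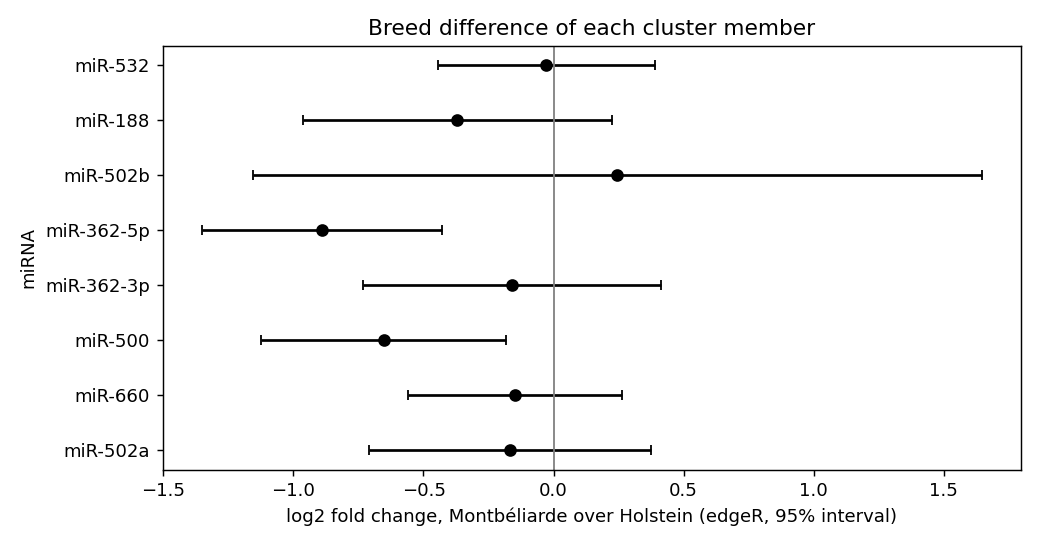
Log2 fold change, Montbéliarde over Holstein (horizontal axis), of each of the 8 miRNAs with its 95% interval from edgeR (bars); 0 marks no difference. The intervals of *miR-362-5p* (-1.35 to -0.43) and *miR-500* (-1.13 to -0.18) lie below 0 before adjustment, and the other 6 include 0.

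No member passed the threshold in edgeR's test, where 0.364% of the 550 miRNAs tested did (2 miRNAs). Before adjustment, 2 of 8 members, *miR-362-5p* and *miR-500*, had a p of at most 0.05, against 14.2% of all tested. Both were higher in Holstein, as were 6.55% of all tested with such a p. With DESeq2, the package used in the study, here in a later version and with its Wald test, *miR-362-5p* passed with an adjusted p of 0.00379 and *miR-500* did not, with 0.0596; 4.86% of the 432 miRNAs to which DESeq2 gave an adjusted p passed. With limma, 2 of 550 miRNAs passed, none of them a member. Again *miR-362-5p* and *miR-500* had an unadjusted p of at most 0.05, as did 70 of the 550 miRNAs in limma's test. No member was free of overlap between the breeds, against 2% of all tested miRNAs. The log2 fold change was below 0 in 7 of 8 members, against 47.6% of all tested, with a median of -0.16 against 0.03. Part of these signs depended on library CNLX15. Without it, the log2 fold changes of *miR-532*, *miR-362-3p*, *miR-660* and *miR-502a* were above 0, at 0.16, 0.057, 0.0504 and 0.0284 (edgeR). The median over all tested miRNAs also rose in that fit, to 0.102, so that *miR-362-3p*, *miR-660* and *miR-502a* stayed below it. Members also varied together across the libraries, so that their signs are not separate observations.

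In edgeR's test, the calls depended on library CNLX23, which was left out with that test alone. Without it, *miR-362-5p* had a log2 fold change of -1.03 and an adjusted p of 0.0305. *MiR-500* had one of -0.85 and an adjusted p of 0.0391, so that both passed the threshold in edgeR's test. More miRNAs passed in this fit as a whole, 6 of 536 tested against 2 of 550 with all libraries. Its unadjusted p-values were 0.05 or lower for 99 of the 536, against 78 of the 550 (edgeR). Over all other alternatives with edgeR or limma the adjusted p stayed above 0.05 for both. In CNLX23 the summed level of the epithelial markers was 287471, and those of the stromal markers, 2586506, and of the leukocyte markers, 17229, were the lowest of that breed. Library CNLX15 had the lowest level of all 11 libraries for 5 of the 8 members, *miR-532*, *miR-660*, *miR-362-3p*, *miR-502a* and *miR-188*. It also had the highest stromal sum of the 11, 5095137, the highest leukocyte sum, 39422, and an epithelial sum of 181193. The part of these markers in the levels was not tested.

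Ratios between members within 1 library do not depend on a scaling factor and show directly whether neighbours differ in their breed difference. They were formed for all 21 pairs of the 7 members with a mean level of at least 10, as log2 ratios of raw counts with 0.5 added. *MiR-362-5p* lay further below *miR-532* in each Montbéliarde library than in any Holstein library. Such a lack of overlap was seen in 1 of the 21 pairs, and its share among pairs of other miRNAs was not determined. The log2 ratio of *miR-532* to *miR-362-5p* was between 4.57 and 5.15 in Holstein, with a mean of 4.86 ± 0.260 (SD, n = 5). It was between 5.22 and 6.15 in Montbéliarde, with a mean of 5.67 ± 0.358 (SD, n = 6). The difference of 0.82 had a p of 0.00433 in the exact permutation test, two-sided, the smallest that this test can give. Adjusted over the 21 pairs it was 0.0909, and a single pair at the smallest p could not have passed.

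Against *miR-532*, *miR-500* was also lower in Montbéliarde, with a difference of 0.63 in the log2 ratio of *miR-532* to *miR-500* (exact permutation p = 0.00866, adjusted p = 0.0909). Against *miR-660*, *miR-362-5p* was lower in Montbéliarde by a difference of -0.70 (exact permutation p = 0.0130, adjusted p = 0.0909) and *miR-500* by one of -0.52 (exact permutation p = 0.0519, adjusted p = 0.156). The log2 ratio of *miR-362-5p* to *miR-500* themselves averaged -0.02 ± 0.243 (SD, n = 5) for Holstein cows and -0.21 ± 0.294 (SD, n = 6) for the others, a difference of -0.19 within the spread between cows (exact permutation p = 0.303). No pair passed after adjustment, and 6 of 21 had an unadjusted exact p of at most 0.05. Of these 6, 5 contained *miR-362-5p* and the other was *miR-532* with *miR-500*. The pairs of *miR-500* with *miR-188*, *miR-362-3p*, *miR-660* and *miR-502a* had exact p-values of 0.0823, 0.0779, 0.0519 and 0.0823. That *miR-362-5p* differs between these breeds was known from earlier results of these data, so that the pairs are no independent evidence of it.

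The arms of the *MIR362* hairpin were at nearly equal level in Holstein and not in Montbéliarde. The log2 ratio of *miR-362-5p* to *miR-362-3p* averaged -0.03 ± 0.339 (SD, n = 5) in Holstein, with values from -0.37 to 0.43. It averaged -0.73 ± 0.452 (SD, n = 6) in Montbéliarde, with values from -1.10 to 0.03. The difference of -0.71 had an exact permutation p of 0.0260, two-sided, and an adjusted p of 0.127 over the 21 pairs, and the breeds overlapped. Without library CNLX15, the adjusted p was 0.0417 for this pair, for *miR-362-5p* with *miR-532* and with *miR-660*, and for *miR-500* with *miR-532*, so that 4 pairs passed. No pair passed when any other library was left out. With 1 library fewer the smallest p of the exact permutation test is larger, and again a single pair at it could not have passed.

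**Figure D3:**
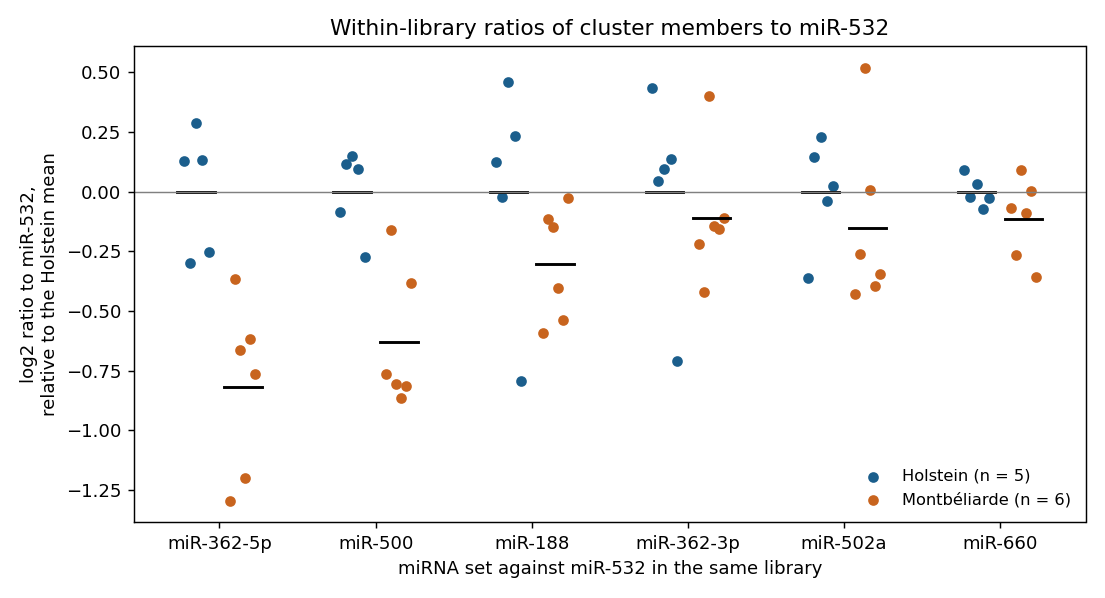
Log2 ratio of the raw counts of each miRNA to those of *miR-532* in the same library, relative to the Holstein mean (vertical axis), in 5 Holstein and 6 Montbéliarde libraries (points) with breed means (black bars). The breed means are 0.82 apart for *miR-362-5p* and 0.63 apart for *miR-500*. The libraries of the breeds do not overlap for *miR-362-5p*, which holds for 1 of all 21 pairs of members.

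Across the 11 libraries the members varied together to different degrees. These correlations, of log2(normalized read count + 1), are descriptions over libraries that share their size factors. Pearson's r was 0.91 and Spearman's rho 0.87 for *miR-532* with *miR-660*, the most abundant members. This r was 0.92 on deviations from the breed means and 0.93 without the 2 libraries farthest from the median of *miR-532*. For *miR-362-5p* with *miR-500* r was 0.86 and rho 0.74, and r fell to 0.595 on deviations from the breed means, so that part of it is the difference in breed means. *MiR-188* had an r of 0.79 with *miR-362-3p*, 0.77 with *miR-500* and 0.70 with *miR-362-5p*. The r of *miR-362-3p* with *miR-660*, 0.77, rested on few libraries, since it was 0.05 without the 2 libraries farthest from the median of *miR-362-3p*. Other pairs fell too. For *miR-532* with *miR-362-3p*, *miR-502a* and *miR-188*, r was 0.69, 0.64 and 0.545. Without the 2 libraries farthest from the median of *miR-532* it was 0.17, 0.20 and 0.096. The 3 pairs of *miR-188* named above had 0.84, 0.69 and 0.66 without the 2 libraries farthest from its median.

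Over the 21 pairs the median r was 0.545, from 0.33 for *miR-532* with *miR-362-5p* to 0.91. Within breeds the median was 0.595, and all 21 were above 0. The median over all pairs of the 356 tested miRNAs with a mean of at least 10 was -0.001. Without the 2 farthest libraries the median of the members fell to 0.401. By this measure the products of the 1 hairpin *MIR362* were not the closest pair: r was 0.44 and rho 0.31 between *miR-362-5p* and *miR-362-3p*. Among the 355 other miRNAs at this level, *miR-500* had rank 3 by r with *miR-362-5p*, whereas *miR-362-3p* had rank 74. These ranks use levels that include the difference in breed means. On deviations from the breed means, the r of *miR-362-5p* was 0.595 with *miR-500* and 0.535 with *miR-362-3p*, close to each other. *MiR-532* had rank 3 with *miR-660*.

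**Figure D4:**
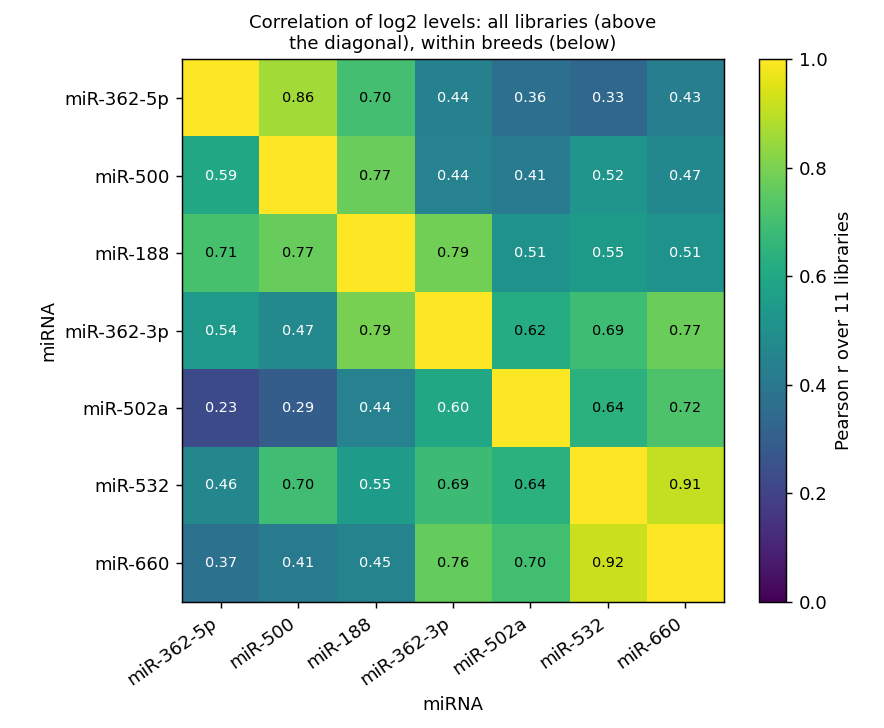
Pearson's r of log2 levels over 11 libraries for 7 members (*miR-502b*, with at most 11 reads, is left out); values above the diagonal use the levels as they are, values below it the deviations from the breed means. *MiR-532* and *miR-660* have the highest r, 0.91 and 0.92 within breeds, and *miR-362-5p* with *miR-500* falls from 0.86 to 0.595.

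No member had the same counts as another miRNA of the table. The closest partner of *miR-660* was *miR-532*, with an SD of the log2 ratio of 0.138, where counting error would give 0.0256. For *miR-362-5p*, *miR-500* and *miR-502a* the closest partners were *miR-19a*, *miR-29d-5p* and *miR-374c*. The SDs were 0.191, 0.188 and 0.172, below the 0.219, 0.241 and 0.252 of counting error, and these partners were the closest of many. Reads that fit more than 1 miRNA could not be examined in counts.

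Outside the cluster, 5 miRNAs were most alike in profile to the mean of the 7 standardized member levels, out of 349 others with a mean of at least 10. They were *miR-190a* with r = 0.96 and rho = 0.89 over 11 libraries, *miR-30f* with r = 0.89, *miR-1291* with r = 0.88, *miR-10179-5p* with r = 0.88 and *miR-374c* with r = 0.88. Only *miR-374c* is annotated on the X chromosome. The log2 fold change of *miR-190a* was -0.66, and those of the other 4 were -0.52, -0.82, -0.56 and -0.23. None of the 5 passed edgeR's test, with adjusted p-values from 0.316 to 0.586.

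The other miRNAs of the X chromosome serve as a frame for the cluster. Of 36 listed by name, 33 were in the table, *miR-664b* was set aside because it is annotated on chromosome 16, and 27 of the remaining 32 had enough reads to be tested. None passed edgeR's test, as in the cluster, while DESeq2 called 2, *miR-504* and *miR-1911*, and limma none. Before adjustment, 5 had an edgeR p of at most 0.05, of which 3 (*miR-374a*, *miR-1298* and *miR-1911*) had their higher level in Holstein. The log2 fold change was below 0 in 16 of 27, with a median of -0.10. This list lacks *miR-374c*, and its 4 miRNAs of highest level were *miR-98*, a member of the let-7 family, *miR-221*, *miR-374a* and *miR-652*. *MiR-98* had 8997 ± 727 (SD, n = 5) for Holstein cows and 7780 ± 1399 (SD, n = 6) for Montbéliarde cows, and its log2 fold change was -0.22. *MiR-221*, known to repress the cell cycle inhibitor *CDKN1B*, had 1476 ± 66.9 and 2307 ± 1197, with a log2 fold change of 0.63. *MiR-374a* had 1707 ± 316.1 and 1262 ± 377.5, with a log2 fold change of -0.45. For *miR-652* they were 972.3 ± 238.3 and 928.7 ± 241.0, with a log2 fold change of -0.07. The adjusted p-values of these 4 were 0.50, 0.309, 0.335 and 0.907 (edgeR).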

How the data were processed

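Small RNA of mammary biopsies was sequenced from 5 Holstein and 6 Montbéliarde cows. After adaptor trimming and filters on ambiguous bases and read size, the authors used ncPRO-seq for quantification and miRDeep2, with miRBase, for alignment to a bovine genome. How reads that match several miRNAs were counted is not given in the sources used here. Used here are the deposited raw read counts of each mature miRNA. The table's 11 columns of normalized reads and the authors' breed means, fold changes and p-values were not used. The normalized read counts given were computed from the raw counts with the size factors of DESeq2 1.42.0.

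The breed comparison used edgeR 4.0.16 under R 4.3.3 (TMM, glmQLFit with robust fitting, glmQLFTest) for the 550 miRNAs whose counts summed to at least 10, with Benjamini-Hochberg adjustment and a threshold of 0.05. SEs were derived from the F statistic. DESeq2 and limma 3.58.1 were alternatives, as were other normalizations and filters, library size as a covariate, known miRNAs only, and fits without 1 library at a time. Ratios between members were tested by exact permutation of the breed labels (462 arrangements, two-sided, smaller tail doubled, scipy 1.17.1). In simulated counts of the breed comparison (550 miRNAs, 200 with a log2 change of 0.75), the share of changed miRNAs recovered was 24.6% for edgeR, 33.3% for DESeq2 and 23.9% for limma. The adjustment is more lenient when more miRNAs are changed. These shares therefore need not hold for the data, where edgeR called 2 of 550.

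Depth was 6087865 to 16808976 counted reads per library. Counting errors leave out PCR duplication, which could not be seen. Libraries of a breed differed far beyond sampling noise, and each was counted as 1 cow. The members and lists were chosen with earlier results of these data known. Named are all members, the 5 miRNAs most alike in profile and the 4 most abundant of the X-chromosome miRNAs listed by name, a list that lacks *miR-374c*. MiRNAs that share a seed with a member were to be named as well, but mature sequences were not used here. Gene order comes from RefSeq's ARS-UCD2.0 annotation, an assembly other than the authors', so that no coordinates are given. Markers of endothelial, erythroid and muscle cells were summed too: the Holstein sums were 251466 to 330168, 23603 to 39552 and 570.2 to 1797, the Montbéliarde sums 239684 to 297167, 23429 to 57421 and 468.3 to 1562, and none was called in edgeR's test.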

Additional observations from a re-analysis of the deposited data

Results flagged for a closer look

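Dixon's criterion compared the lowest and the highest library of each breed with the rest, for every member and every ratio between members. Of these 58 groups, chance would mark about 1 in 20 if the values were normally distributed. The levels were compared without taking logs and the ratios share members, so that the actual share is not known. A library stood apart in 6 groups. Library CNLX23 stood above the other Montbéliarde libraries in 3 members: *miR-362-5p*, with a normalized read count of 109.0 against at most 75.2, *miR-500*, with 144.3 against at most 93.3, and *miR-188*, with 56.5 against at most 34.9. Library CNLX13 stood above the other Montbéliarde libraries in *miR-502b*, with 18.3 against at most 4.50, which rests on 11 reads. Among the ratios, Holstein library CNLX9 had a log2 ratio of *miR-362-3p* to *miR-660* of -8.43, where the nearest other had -7.69. Holstein library CNLX1 had a log2 ratio of *miR-660* to *miR-502a* of 10.01, where the nearest other had 9.52.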

How the results depend on the processing

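The sign of the log2 fold change stayed the same for *miR-362-5p*, *miR-500* and *miR-188* in every alternative tried, with values between -1.03 and -0.74, between -0.85 and -0.53, and between -0.59 and -0.0997. For *miR-188*, the lowest value came without CNLX23 and the highest with library size as a covariate, and without CNLX1, CNLX5, CNLX15 and CNLX21 it was -0.23, -0.20, -0.20 and -0.24. The number of miRNAs called changed from 2 to 21 with DESeq2's Wald test, to 0 with RLE normalization (82 at an unadjusted p of at most 0.05) and to 1 with total counts, and was between 0 and 6 with a library left out, where the sets with 0 calls had 62 to 80 miRNAs at an unadjusted p of at most 0.05. The number of members called was 1 with DESeq2 and between 0 and 2 with a library left out, the 2 without CNLX23. Differences near 0 changed sign. That of *miR-502b* was -0.14 with limma, -0.76 with library size as a covariate and between -0.57 and 0.56 with a library left out, and that of *miR-532* was 0.0043 with total counts. With a library left out, *miR-532* was between -0.14 and 0.16, *miR-362-3p* between -0.28 and 0.095, *miR-660* between -0.21 and 0.0504, and *miR-502a* between -0.26 and 0.0284. With 5 added to the counts, the breed difference of the log2 ratio was -0.013 for *miR-362-3p* to *miR-502a* and -0.039 for *miR-660* to *miR-502a*. With a library left out it was between -0.14 and 0.24 and between -0.0374 and 0.15, and for *miR-362-3p* to *miR-660* between -0.16 and 0.0907. Between 0 and 4 pairs passed with a library left out. The members at their own rank of level numbered 4 in CNLX3, CNLX9, CNLX17 and CNLX21 and 5 in CNLX15, of 8. The cause of these changes was not tested. No paired analysis was possible because the breeds are different cows and no pairing between them is given. Depth limits *miR-502b* most, and *miR-188* and *miR-502a* to a lesser degree.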
